A study of Mus musculus with 10 samples.

Results

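Expression of 10 thermogenic and beige or brown adipocyte genes (Ucp1, Cidea, Elovl3, Cox8b, Cox7a1, Dio2, Ppargc1a, Prdm16, Ebf2 and Zic1) was followed in the inguinal white adipose tissue (iWAT) of male C57BL/6 mice. They were taken by gene name from 51826 listed genes, of which 33120 have an exon length and can hold exon reads, and all 10 were found in each of the 10 RNA-seq libraries. The F0 mice were males of 10 to 12 weeks that had eaten either a control diet (CD, 2 mice) or a low-protein diet (LPD, 2 mice) since weaning. The F1 mice were 5-week-old sons of CD-fed fathers (3 mice) or of LPD-fed fathers (3 mice, pLPD offspring), born to CD-fed mothers and themselves fed CD, and the labels name no transgene or deletion in any mouse. Each library is 1 mouse, and generation, age and the set of libraries coincide, so that they cannot be told apart.

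White adipocytes store lipid, whereas brown and beige adipocytes burn it. In these cells the inner mitochondrial membrane protein UCP1 lets protons bypass ATP synthase, so that fuel oxidation is released as heat. Beige adipocytes arise within white depots, the mouse inguinal depot being the best known, and their numbers and Ucp1 change with cold, sympathetic input, diet and age. Noradrenaline acts through beta-adrenergic receptors, cyclic AMP and protein kinase A on transcription factors and on PGC-1alpha (Ppargc1a), while PRDM16 and EBF2 are transcriptional regulators of brown and beige identity. In bulk tissue, a change in the number of such cells and a change in RNA per cell cannot be told apart.

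The bases before the transcription start of 4 members are shown because the results below turn on these genes: Ucp1, Cox7a1 and Cox8b, which were up-regulated together in F0, and Ppargc1a, the only member called in F1. Sequences are from RefSeq (GRCm38.p6), each being the 250 bases before the annotated start, 5′ to 3′ on the strand of the gene. Ucp1 is at chr8:83290098-83290347, plus strand. Cox7a1 is at chr7:30183921-30184170, plus strand. Cox8b is at chr7:140900447-140900696, minus strand. Ppargc1a is at chr5:51567726-51567975, minus strand. Capitals mark matches, on either strand, to TGACG (the half-site of the cAMP response element) or to AGGTCA (a half-site of nuclear receptors).
Ucp1: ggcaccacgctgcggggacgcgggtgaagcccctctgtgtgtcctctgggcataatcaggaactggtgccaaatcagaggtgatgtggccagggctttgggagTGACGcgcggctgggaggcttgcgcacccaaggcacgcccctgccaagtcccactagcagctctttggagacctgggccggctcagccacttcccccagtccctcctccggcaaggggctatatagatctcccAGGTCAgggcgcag
Cox7a1: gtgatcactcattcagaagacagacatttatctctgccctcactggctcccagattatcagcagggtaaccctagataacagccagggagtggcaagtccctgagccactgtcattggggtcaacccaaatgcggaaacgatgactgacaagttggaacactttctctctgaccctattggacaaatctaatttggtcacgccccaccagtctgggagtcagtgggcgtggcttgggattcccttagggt
Cox8b: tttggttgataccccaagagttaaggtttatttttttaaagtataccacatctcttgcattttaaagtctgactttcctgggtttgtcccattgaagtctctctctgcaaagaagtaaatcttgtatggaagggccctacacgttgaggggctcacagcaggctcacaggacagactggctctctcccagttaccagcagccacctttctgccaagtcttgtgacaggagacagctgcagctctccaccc
Ppargc1a: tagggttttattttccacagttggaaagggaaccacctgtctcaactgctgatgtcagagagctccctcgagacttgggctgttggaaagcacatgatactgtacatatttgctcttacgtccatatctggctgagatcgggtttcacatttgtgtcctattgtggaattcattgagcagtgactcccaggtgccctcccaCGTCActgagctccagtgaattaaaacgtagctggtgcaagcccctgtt
The Ucp1 sequence holds TGACG, which begins 147 bases before the start, and AGGTCA, which begins 14 bases before it. In the Ppargc1a sequence, the reverse complement CGTCA begins 49 bases before the start. The promoter table covers 7 of the 10 members, with Cidea, Elovl3 and Ebf2 without an entry, and the search ran over 250 bases before to 50 bases after each start. TGACG was found in 3 of these 7 members (Ucp1, Ppargc1a and Dio2) and in 20.8% of the 32851 promoters of the table. AGGTCA was found in 1 of 7 members and in 16.3% of all promoters. The EBF motif TCCCNNGGG was in 0 of 7 members and in 6.56% of all promoters. These are matches of letters and were not tested as binding sites.

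Reads on exons numbered 6351075 to 10044546 per library, so that 3 reads correspond to between 0.3 and 0.468 CPM (counts per 1000000 exon reads after TMM scaling). This floor accounts for counting error alone. Exons held 60.6% to 63.6% of the reads on genes in CD offspring and F0 mice, but 58.5%, 57.1% and 51.5% in pLPD offspring, the last being pLPD replicate 1. White adipocyte markers summed to between 22059 and 30347 CPM over 10 genes in every library, and all 10 were detected in every group. Skeletal muscle markers, 25 genes of a tissue that adjoins the depot, summed to 4532 and 7102 CPM in F0 CD mice, to 2157 and 2929 CPM in F0 LPD mice and to between 229 and 627 CPM in F1.

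Per kilobase of exon, using the deposited RPKM, Ucp1 and Cox8b headed the members in the offspring of CD fathers. Ucp1 averaged 263 RPKM and ranged from 205 to 320 RPKM, and Cox8b averaged 228 RPKM with a range of 205 to 243 RPKM that overlapped it. Cidea followed at 123 RPKM, Cox7a1 at 59.3 RPKM and Elovl3 at 13.4 RPKM, each range lying apart from its neighbours. The regulators were far lower, with Ebf2 at 3.86, Prdm16 at 1.48 and Ppargc1a at 1.26 RPKM, and Dio2 was at 0.559 RPKM. In F0 CD mice the order was different, with Cox8b first at 81.9 RPKM, Cidea second at 34.9 RPKM and Ucp1 next at 11.5 RPKM, in the same range as Cox7a1 at 10.9 RPKM. Below these, Ebf2 was at 6.35 RPKM, Ppargc1a at 1.71, Prdm16 at 1.63 and Elovl3 at 1.20 RPKM, the last 3 not separated beyond their ranges. With LPD in F0, Ucp1 averaged 81.9 RPKM, still below Cox8b at 178.6 RPKM, and its range overlapped that of Cidea at 102.7 RPKM. In pLPD offspring, Ucp1 was at 383, 110 and 113 RPKM and Cox8b at 181, 144 and 161 RPKM. Ucp1 was thus above Cox8b in replicate 1 and below it in replicates 2 and 3, with Cidea and Cox7a1 next by their means.

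Zic1, a transcription factor of classical brown fat, had 5 exon reads in all 10 libraries and at most 2 in a mouse, below the floor of 3 reads everywhere. It was too low to be tested, which left 9 members. Of the 8 markers of classical brown adipocytes listed here (Zic1 among them), 6 could be tested, and 0 passed the adjusted threshold by edgeR in either diet comparison (0 at an unadjusted p under 0.05 in F1, 2 in F0), with medians of -0.09 in F1 and 0.02 in F0 (log2). The 9 genes listed as beige surface or progenitor markers, such as Tbx1 and Tmem26, summed to between 119 and 152 CPM in every library. Of 8 tested in each generation, 0 passed the threshold by edgeR's quasi-likelihood test. At an unadjusted p under 0.05 there was 1 in F1 and 2 in F0, all lower with LPD or pLPD. Their median log2 fold change was -0.15 in F1 and -0.09 in F0.

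**Figure D1:**
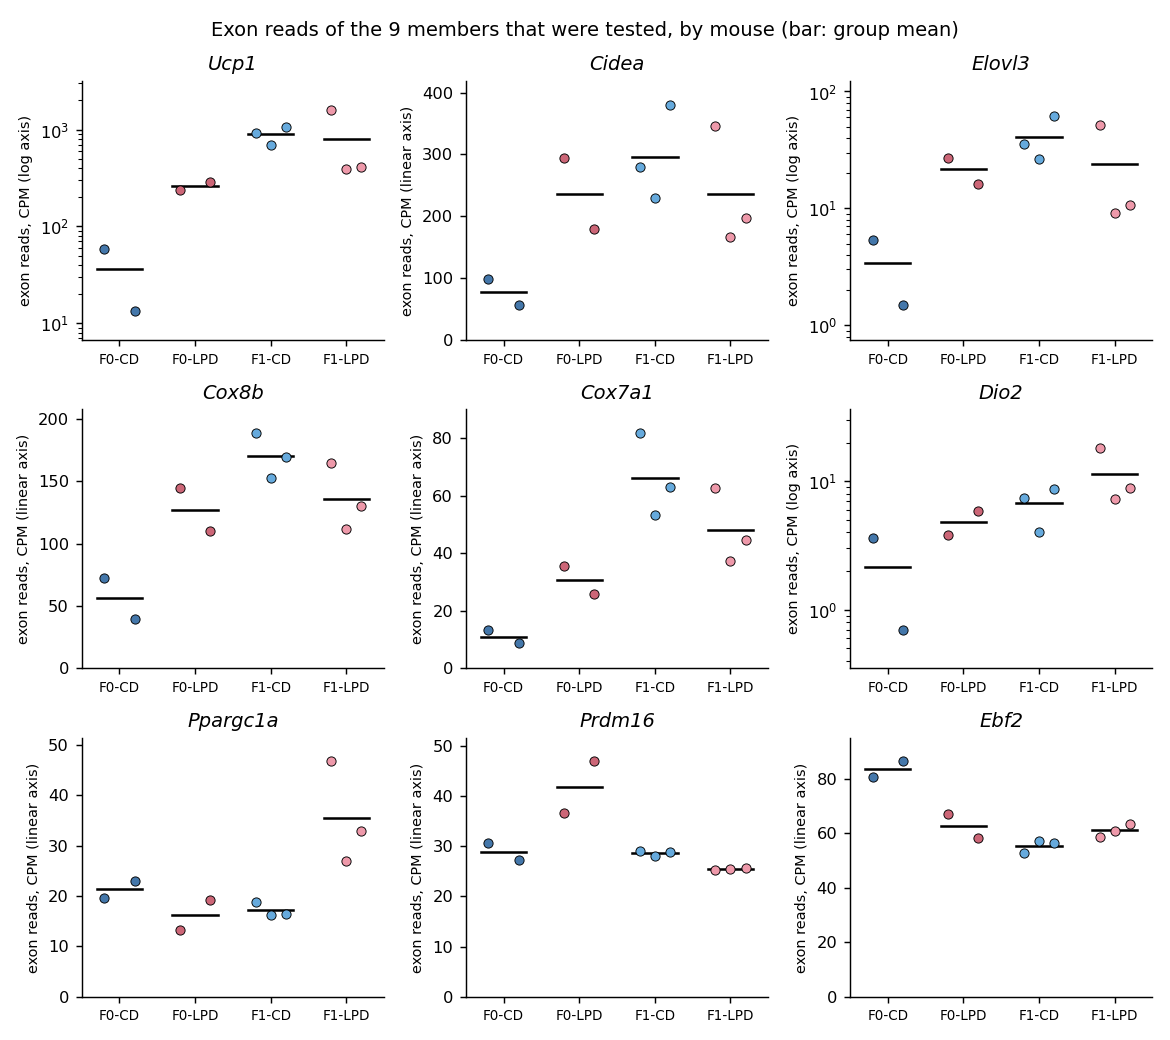
Exon reads of 9 members in CPM, by mouse, with 1 panel per gene, points for mice and a bar for the group mean (2 mice per F0 group, 3 per F1 group). Axes are logarithmic for Ucp1, Elovl3 and Dio2 and linear from 0 for the others. Both F0 LPD mice lie above both F0 CD mice for Ucp1 (238 and 290 against 58.5 and 13.5 CPM), and pLPD offspring replicate 1 lies above the other 2 pLPD offspring (1583 against 389 and 415 CPM).

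In F0, the question was what a low-protein diet does to the iWAT of the males that eat it. The effector genes of thermogenic adipocytes were up-regulated together, Dio2 excepted, with fold changes of Ucp1 and Elovl3 above those of the 2 respiratory chain genes. By edgeR's quasi-likelihood test, adjusted over 14581 genes, 5 of 9 members were higher with LPD, against 1.18% of all genes tested, and 0 were lower, against 1.32%, with 1 lower at an unadjusted p under 0.05 and 0 by DESeq2. The median log2 fold change of the 9 members was 1.19, beside 0 over all genes. All 9 members separated the diets without overlap, 7 of them higher with LPD and 2 lower (Ppargc1a and Ebf2). With 2 mice against 2, an exact permutation test cannot give less than 0.33, so that separation alone carries little weight. The share of all genes that separate in this way was not counted.

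Ucp1 was 58.5 and 13.5 CPM in the CD mice and 238 and 290 CPM in the LPD mice. Both LPD mice were above both CD mice, which themselves differed 4.34-fold. The log2 fold change was 2.89 (SE 0.47, adjusted p = 0.0196, edgeR). Its intron reads, which come largely from unspliced RNA, were 9 and 4 in the CD mice against 70 and 56 in the LPD mice, and intron reads alone gave a log2 fold change of 3.34 (adjusted p = 0.00128, edgeR, chosen after seeing the data). Exon and intron reads of Ucp1 were thus both higher with LPD.

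Elovl3, an elongase of very long chain fatty acids induced in active brown fat, was 5.37 and 1.5 CPM with CD and 27.0 and 16.1 CPM with LPD. The groups did not overlap, and the log2 fold change was 2.69 (SE 0.42, adjusted p = 0.0189, edgeR). Cidea, a lipid droplet protein, was 98.3 and 56.4 CPM with CD and 294.9 and 178.6 CPM with LPD. It rose by 1.62 on the log2 scale (SE 0.27, adjusted p = 0.0233, edgeR), again without overlap. Dio2, the deiodinase that makes active thyroid hormone, was 3.58 and 0.699 CPM with CD and 3.78 and 5.85 CPM with LPD. The lower LPD mouse was barely above the higher CD mouse, and Dio2 did not pass the threshold (log2 fold change 1.19, SE 0.56, adjusted p = 0.347, edgeR).

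Cox8b and Cox7a1 encode the muscle and brown fat isoforms of 2 small subunits of cytochrome c oxidase (complex IV). Cox7a1 was 13.4 and 8.69 CPM in CD mice and 35.5 and 25.7 CPM in LPD mice, a log2 fold change of 1.48 (SE 0.22, adjusted p = 0.0169, edgeR). Cox8b was 72.4 and 39.9 CPM in CD mice and 144.5 and 109.8 CPM in LPD mice, a log2 fold change of 1.19 (SE 0.24, adjusted p = 0.0412, edgeR). For both genes the LPD mice were above the CD mice with no overlap. Their widely expressed counterparts gave log2 fold changes near 0, with Cox8a at 0.04 (adjusted p = 0.907), Cox7a2 at 0.08 (adjusted p = 0.761) and Cox7a2l at -0.01 (adjusted p = 0.989, all edgeR).

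Expressed as a share of the summed RPKM of its family, Cox7a1 made up 12.3% ± 3.86 (SD, n = 2) of Cox7a1, Cox7a2 and Cox7a2l in F0 CD mice and 27.4% ± 3.60 (SD, n = 2) in F0 LPD mice. Cox8b made up 24.4% ± 7.81 (SD, n = 2) of Cox8a and Cox8b in CD mice and 42.0% ± 4.47 (SD, n = 2) in LPD mice. Neither pair of groups overlapped, and the exact permutation test gave its smallest possible p of 0.33 for both. Both isoforms are also expressed in skeletal muscle, whose marker sum was lower with LPD (14 of 25 genes lower, 0 higher also at an unadjusted p under 0.05, median log2 fold change -1.24). Cox6a2, another isoform of heart and skeletal muscle, fell with LPD by 1.99 on the log2 scale (SE 0.34, adjusted p = 0.0248, edgeR). The part of muscle in the values of Cox7a1 and Cox8b was not tested. The remaining isoforms Cox6a1 (0.21), Cox4i1 (-0.02) and Cox4i2 (-0.71) did not pass the threshold.

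**Figure D2:**
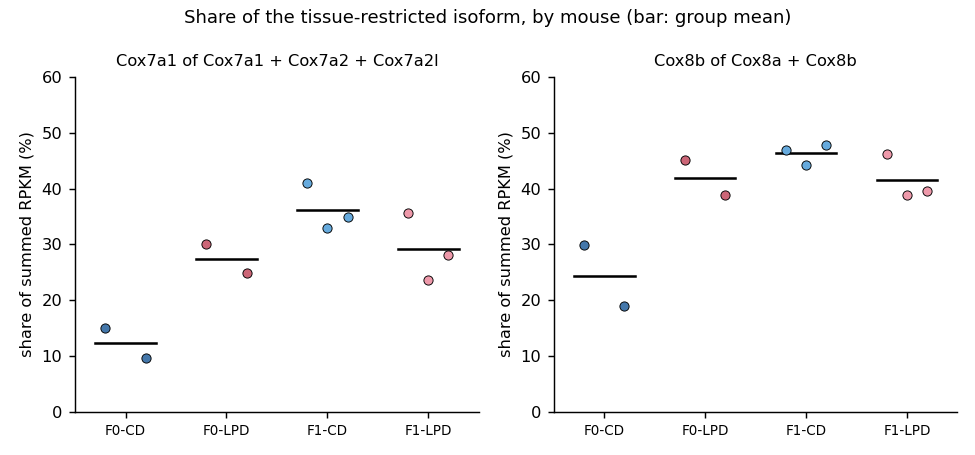
Share of Cox7a1 (left) and Cox8b (right) in the summed RPKM of their isoform families, in percent, by mouse, with points for mice and a bar for the group mean. The F0 CD mice are lowest in both panels (15.1% and 9.62% for Cox7a1, 29.9% and 18.9% for Cox8b), and the other 3 groups lie higher.

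The regulators Prdm16 and Ebf2 changed less and in opposite directions. Prdm16 was 30.6 and 27.3 CPM with CD and 36.6 and 46.9 CPM with LPD (log2 fold change 0.53, SE 0.13, adjusted p = 0.084, edgeR). Ebf2 was 80.6 and 86.4 CPM with CD and 67.0 and 58.1 CPM with LPD (log2 fold change -0.41, SE 0.10, adjusted p = 0.0711, edgeR). Their groups did not overlap, but neither passed the threshold. Reads shared with other places in the genome made up part of the counts of these genes, with 77.6% to 88.8% of Prdm16 reads and 62.0% to 67.7% of Ebf2 reads mapping uniquely, and antisense genes lie within both.

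Ppargc1a, the coactivator of mitochondrial biogenesis, gave different answers on its exons and its introns. Its exon reads were 19.7 and 23.1 CPM with CD and 13.3 and 19.3 CPM with LPD (log2 fold change -0.40, SE 0.18, adjusted p = 0.343, edgeR). Its intron reads were 16.6 and 15.0 CPM with CD and 34.0 and 31.9 CPM with LPD, at 148, 150, 324 and 273 reads. The LPD mice were thus slightly lower on exons and clearly higher on introns, each without overlap, and intron reads alone rose by 1.09 on the log2 scale (adjusted p = 0.000948, edgeR, chosen after seeing the data). Within the boundaries of Ppargc1a, 4 further genes are listed, 3 of them on the same strand and none with an exon length, and their reads were not separated from its introns here.

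**Figure D3:**
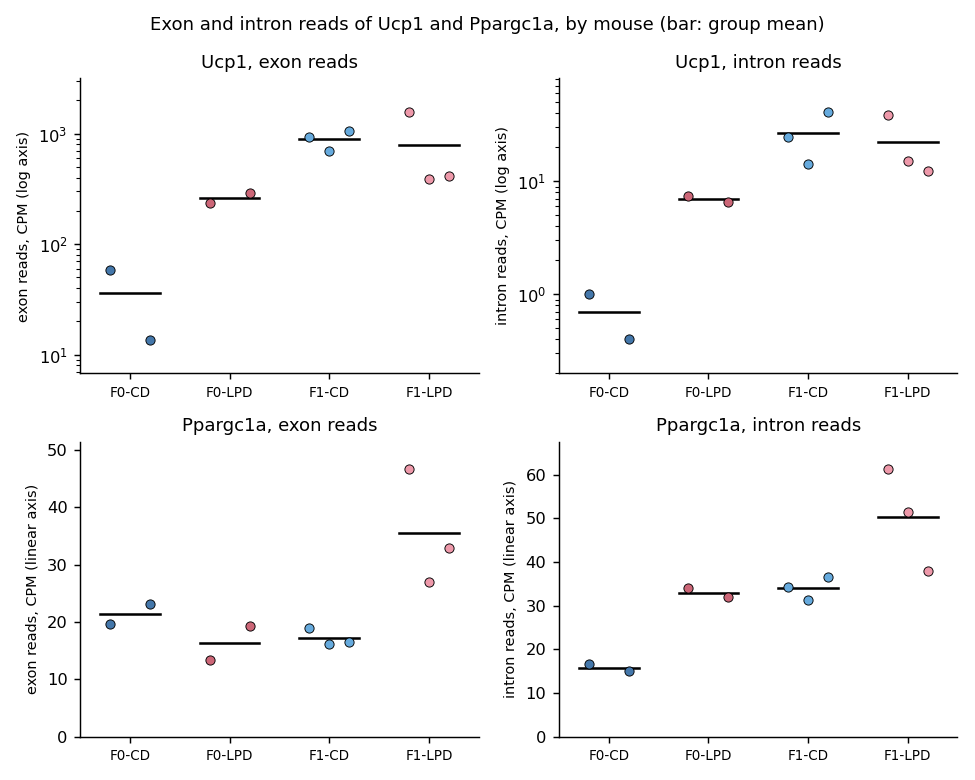
Reads on exons (left) and introns (right) of Ucp1 (top, log axes) and Ppargc1a (bottom, linear axes from 0) in CPM relative to the exon total, by mouse, with a bar for the group mean. In F0, Ucp1 is higher with LPD on both, whereas Ppargc1a is lower on exons (13.3 and 19.3 against 19.7 and 23.1 CPM) and higher on introns (34.0 and 31.9 against 16.6 and 15.0 CPM).

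The calls of the 5 genes depended on the tool, the fit and single mice. DESeq2 called 1 of them (Cox7a1, adjusted p = 8.37e-06), with Ucp1 at an adjusted p of 0.0873, and limma on log2 RPKM called 0 of 9 members. With edgeR itself, fitting all 4 groups together left 2 members called (Ucp1 at an adjusted p of 0.0603, Cidea at 0.0502 and Elovl3 at 0.169), and all reads on the gene left 3 (Cidea at 0.0564 and Cox8b at 0.0665). Leaving out F0 LPD replicate 2 left 3 members called and ended the calls of Ucp1 (log2 fold change 2.74, adjusted p = 0.0554) and Cox8b (1.37, adjusted p = 0.0553), leaving out F0 LPD replicate 1 ended that of Cox8b (0.97, adjusted p = 0.118), and Dio2 was called without F0 CD replicate 1 (2.75, adjusted p = 0.045), all by edgeR. Without F0 LPD replicate 1, 5 members were still called, since Prdm16 passed (0.70, adjusted p = 0.0295, edgeR).

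The wider thermogenic programme was tested alongside. This list of 30 further genes holds fatty acid uptake and oxidation, uncoupling and related functions. In F0, 12 of 26 tested were higher and 0 lower by edgeR (0 lower at an unadjusted p under 0.05 too), against 1.18% of all genes tested called higher, with a median log2 fold change of 0.69 beside 0 over all genes. Counted at an unadjusted p under 0.05 (edgeR), 21 of the 26 were higher, beside 1098 of all 14581 genes. The other 14 did not pass the adjusted threshold. Their log2 fold changes ran from -0.04 (Ppargc1b) to 1.55 (Acot11), named here only as the ends of that range. Plin5, which coats lipid droplets at mitochondria, rose by 2.63 (SE 0.28, adjusted p = 0.00501, edgeR), and Pdk4, which spares glucose by inhibiting pyruvate dehydrogenase, rose by 2.00 (SE 0.18, adjusted p = 0.00223, edgeR). Fabp3 (1.62) and Slc27a2 (1.71), which handle fatty acids, Cpt1b (1.60) and Slc25a20 (1.06), which carry them into mitochondria, Acsl5 (0.71), which activates them, glycerol kinase Gk (1.37) and the proton channel Otop1 (1.97) were also higher. The carnitine palmitoyltransferase Cpt1b was 57.5 and 27.2 CPM in CD mice and 140.3 and 113.7 CPM in LPD mice, without overlap. Cpt1b, Fabp3 and Pdk4 are also expressed in muscle, whose markers were lower with LPD, and the part of muscle in their values was not tested.

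Among 27 further regulators of brown and beige identity, 2 were higher and 1 lower in F0 (median 0.03). Cebpb, a partner of PRDM16, rose by 0.55 (SE 0.09, adjusted p = 0.0186, edgeR), and Irf4, a factor induced by fasting and cold, fell by 0.68 (SE 0.10, adjusted p = 0.0164, edgeR). The other higher gene was Ppara, the receptor that drives fatty acid oxidation genes, at 1.12 (adjusted p = 0.0249, edgeR). Of the genes for beta-adrenergic input, 1 of 12 was higher (Adcy3, 0.45) and 0 lower, with a median of 0.07. Ppara and Adcy3 fell outside the rule for named genes and were chosen after their values were seen.

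In F1, the question was whether the diet of the father changes the iWAT of sons that never ate it. Only Ppargc1a was called among the members, and it was higher in pLPD offspring. By edgeR's quasi-likelihood test over 14049 genes, 1 of 9 members was higher, against 0.142% of all genes tested, and 0 were lower, against 1.02%, with 2 lower at an unadjusted p under 0.05 and 0 by DESeq2. The median log2 fold change of the 9 was -0.16, beside 0.007 over all genes.

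Ppargc1a was 18.9, 16.2 and 16.5 CPM in CD offspring and 46.7, 27.0 and 32.9 CPM in pLPD offspring. Every pLPD mouse was above every CD mouse, and the log2 fold change was 1.05 (SE 0.18, adjusted p = 0.026, edgeR; exact permutation p = 0.1, the smallest that 3 against 3 allows). Intron reads were 34.3, 31.3 and 36.7 CPM in CD offspring and 61.4, 51.4 and 37.9 CPM in pLPD offspring. They too did not overlap, at a log2 fold change of 0.46 that did not pass the threshold (adjusted p = 0.118, edgeR). The call on exons was lost without pLPD replicate 1 (0.81, adjusted p = 0.0541), without CD replicate 1 (1.12, adjusted p = 0.0945) and without CD replicate 2 (1.01, adjusted p = 0.125). It was also lost with limma on log2 RPKM (0.81 with 0.1 added, adjusted p = 0.0617) and when the exon share was added as a covariate (0.51, adjusted p = 0.52, edgeR), and the part of that share, which was lower in all 3 pLPD offspring, in the result was not tested beyond this.

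Ucp1 was 927, 695 and 1050 CPM in CD offspring, and 1583, 389 and 415 CPM in pLPD offspring. The pLPD group held both the highest mouse (replicate 1) and the lowest 2 mice of F1, and the log2 fold change was -0.16 (SE 0.43, adjusted p = 0.904, edgeR). Replicate 1 exceeded the other 2 pLPD offspring 4.07-fold and 3.81-fold, and it was also the library with the lowest exon share. Without it, Ucp1 was lower in pLPD offspring by 1.14 on the log2 scale (adjusted p = 0.0189, edgeR), and without either of the other pLPD mice the sign turned, to 0.17 and 0.15. With the exon share as a covariate, all 6 mice included, Ucp1 was lower by 2.12 on the log2 scale (adjusted p = 0.00513, edgeR). That share was 51.5% to 58.5% in pLPD offspring and 60.6% to 62.3% in CD offspring, without overlap. This fit therefore cannot tell the share apart from the paternal diet. Intron reads of Ucp1 followed its exon reads only in part, with 182, 124 and 303 reads in CD offspring and 255, 111 and 80 reads in pLPD offspring. On introns, pLPD replicate 1 (39.04 CPM) was slightly below CD replicate 3 (40.72 CPM). Also unlike on exons, pLPD replicate 2 (15.05 CPM) was above CD replicate 2 (14.35 CPM).

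The same mouse set the spread of Elovl3, Cidea, Cox8b and Cox7a1. Elovl3 was 35.4, 26.6 and 61.4 CPM in CD offspring and 51.9, 9.09 and 10.8 CPM in pLPD offspring (log2 fold change -0.78, SE 0.52, adjusted p = 0.521, edgeR). Elovl3 was lower by 2.04 on the log2 scale without replicate 1 (adjusted p = 0.0384) and by 3.29 with the exon share as a covariate (adjusted p = 0.028, edgeR). The fit with the exon share has the same limit here as for Ucp1. Cidea was 280.0, 228.7 and 380.6 CPM in CD offspring and 346.0, 165.7 and 197.0 CPM in pLPD offspring (log2 fold change -0.32, SE 0.24, adjusted p = 0.579, edgeR). For each of these genes, pLPD replicates 2 and 3 were below every CD offspring and replicate 1 was within their range or, for Ucp1, above it.

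Cox8b was 188.6, 152.7 and 169.2 CPM in CD offspring and 164.6, 112.0 and 130.3 CPM in pLPD offspring (log2 fold change -0.32, SE 0.13, adjusted p = 0.276, edgeR). Cox7a1 was 81.9, 53.4 and 63.0 CPM in CD offspring and 62.8, 37.4 and 44.6 CPM in pLPD offspring (log2 fold change -0.45, SE 0.19, adjusted p = 0.285, edgeR). The groups overlapped for both. As a share of its family, Cox7a1 was 36.2% ± 4.24 (SD, n = 3) in CD offspring and 29.2% ± 6.13 (SD, n = 3) in pLPD offspring, a difference within the spread (exact permutation p = 0.3). The share of Cox8b was 46.4% ± 1.97 (SD, n = 3) and 41.5% ± 4.14 (SD, n = 3), with an exact permutation p of 0.2.

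Dio2 was 7.42, 4.05 and 8.74 CPM in CD offspring and 18.1, 7.32 and 8.88 CPM in pLPD offspring. The groups overlapped, with replicate 1 again the highest, and the log2 fold change was 0.77 (SE 0.36, adjusted p = 0.329, edgeR). Prdm16 differed little, with 29.0, 28.0 and 28.9 CPM in CD offspring against 25.3, 25.5 and 25.7 CPM in pLPD offspring. Ebf2 was 52.8, 57.2 and 56.3 CPM in CD offspring and 58.6, 61.0 and 63.6 CPM in pLPD offspring. Both separated the groups without overlap (exact permutation p = 0.1), but the log2 fold changes of -0.16 for Prdm16 (SE 0.10, adjusted p = 0.517) and 0.15 for Ebf2 (SE 0.09, adjusted p = 0.459, edgeR) did not pass the threshold.

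**Figure D4:**
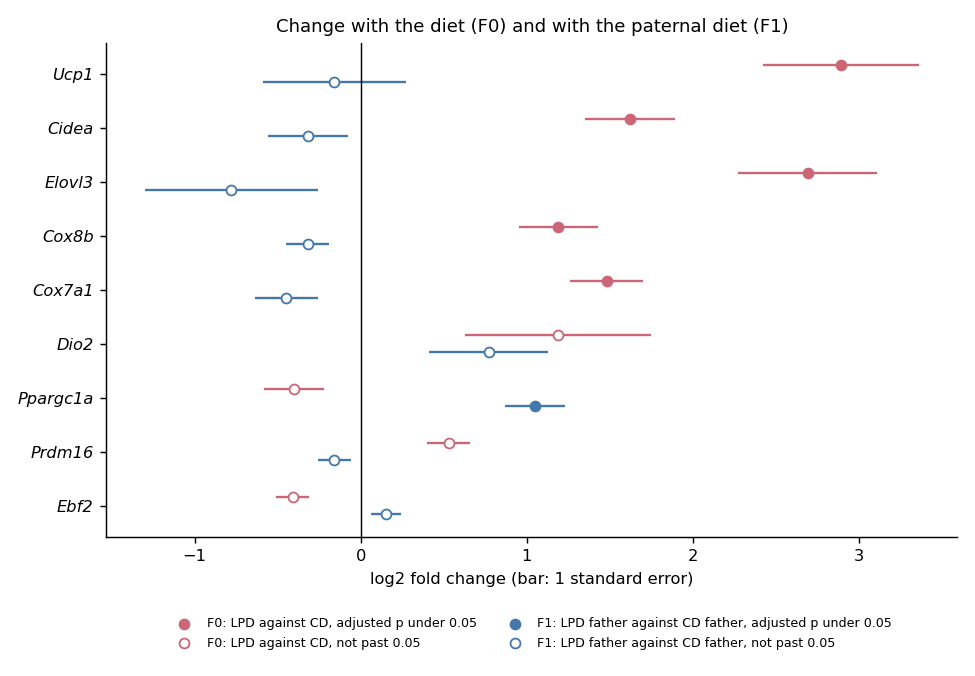
Log2 fold change of 9 members with the diet in F0 and with the paternal diet in F1, with bars of 1 standard error, filled where the adjusted p of edgeR's quasi-likelihood test is under 0.05. In F0, 5 genes are filled, all above 0, from Cox8b at 1.19 to Ucp1 at 2.89, and in F1 only Ppargc1a is filled, at 1.05.

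In the wider thermogenic programme, 0 of 27 genes tested were higher in pLPD offspring by edgeR, against 0.142% of all genes tested. Lower were 3 of 27, against 1.02%. At an unadjusted p under 0.05, 2 were higher and 5 lower, and the median log2 fold change was -0.01. The lower genes were Elovl6 (-1.40, SE 0.19, adjusted p = 0.00868, edgeR), Acsl5 (-0.98, SE 0.14, adjusted p = 0.0118, edgeR) and Acot11 (-1.26). Elovl6 elongates newly made fatty acids, and Acsl5 activates fatty acids to acyl-CoA. Acsl5 was 186, 190 and 205 CPM in CD offspring and 127, 86.4 and 80.6 CPM in pLPD offspring, without overlap, whereas in F0 it was higher with LPD. Of the genes named above as higher with LPD in F0, Fabp3 was at 0.74 in F1, Gk at 0.74, Pdk4 at 0.76, Slc27a2 at 0.48, Plin5 at 0.08, Cpt1b at 0.03, Slc25a20 at -0.11 and Otop1 at -0.19, none past the threshold. Pdk4 was 646 CPM in pLPD replicate 1 and 154 and 157 CPM in replicates 2 and 3, so that this mouse stood apart there too.

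**Figure D5:**
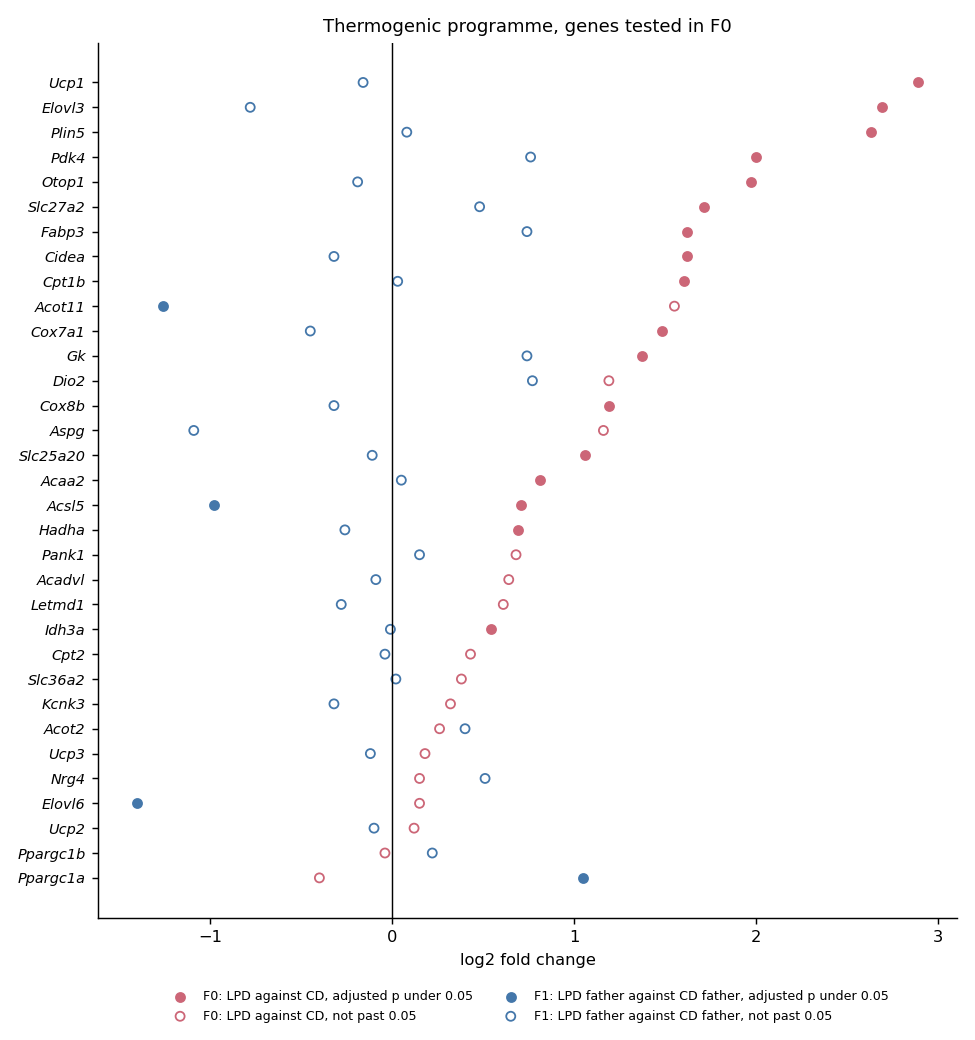
Log2 fold change of the 33 genes of the thermogenic programme (members included) that could be tested in F0, with the diet in F0 and the paternal diet in F1, filled where the adjusted p is under 0.05 (edgeR). In F0, 17 genes are filled to the right of 0 and none to the left. In F1, Ppargc1a alone is filled to the right, and Elovl6, Acsl5 and Acot11 are filled to the left.

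Of 25 further regulators tested in F1, 0 passed the threshold in either direction by edgeR, with 8 at an unadjusted p under 0.05 (Cebpb at -0.42, adjusted p = 0.0683, Irf4 at 0.30, adjusted p = 0.209), and 0 of 12 genes of beta-adrenergic input passed, with 1 at an unadjusted p under 0.05. Macrophage markers summed to 524 to 615 CPM in CD offspring and 349 to 418 CPM in pLPD offspring (3 of 5 lower, all 5 detected), and epithelial markers to 15.7 to 21.4 CPM against 2.45 to 5.29 CPM. The part of these marker differences in the member values was not tested.

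The difference between the 2 diet effects was taken from an interaction term in a fit of all 10 libraries, as the effect in F1 minus that in F0. In all, 3 members passed the threshold by edgeR, adjusted over 15111 genes. One was higher, against 0.357% of all genes tested, and 2 were lower, against 0.893%. Ppargc1a differed by 1.44 (SE 0.30, adjusted p = 0.041), Cox7a1 by -1.94 (SE 0.35, adjusted p = 0.0221) and Cox8b by -1.51 (SE 0.30, adjusted p = 0.032). The differences of Ucp1 (-3.05, adjusted p = 0.0984), Elovl3 (-3.47, adjusted p = 0.118) and Cidea (-1.95, adjusted p = 0.0579) were greater in size and did not pass. Without pLPD replicate 1, these 3 passed as well, Ucp1 at -4.03 (adjusted p = 0.00646), Elovl3 at -4.73 (adjusted p = 0.00617) and Cidea at -2.32 (adjusted p = 0.0133), for 6 members in all. Of the 3 called members, none kept its call in all 10 fits with 1 mouse left out, Cox7a1 doing so in 6, Cox8b in 3 and Ppargc1a in 3. The number called was 0 without F0 CD replicate 2 or CD offspring 1, and 1 without F0 LPD replicate 1 or 2, CD offspring 2, or pLPD replicate 2 or 3. On intron reads alone the sign of Ppargc1a turned to -0.62 (adjusted p = 0.135, edgeR).

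The members also differed between the generations on the control diet. By edgeR, 5 members were higher in the 5-week-old CD offspring than in the 10 to 12-week-old CD mice, against 10.1% of the 15111 genes tested, and 1 was lower, against 8.78%. The median log2 fold change of the 9 members was 1.67, beside 0.008 over all genes. Ucp1 differed most, at 695 to 1050 CPM in CD offspring against 58.5 and 13.5 CPM in F0, a ratio of means of 24.7 and a log2 fold change of 4.64 (SE 0.70, adjusted p = 0.000659, edgeR). The lowest of all 6 offspring was 1.34 times the highest of the 4 F0 mice, so that Ucp1 separated the generations whatever the diet.

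Elovl3 (3.60, adjusted p = 0.00595), Cox7a1 (2.58, adjusted p = 4.33e-05), Cidea (1.94, adjusted p = 0.00194) and Cox8b (1.60, adjusted p = 0.000428, edgeR) were higher in the same comparison. Ebf2 was lower by 0.59 on the log2 scale (-0.59, adjusted p = 0.000698, edgeR), with 52.8 to 57.2 CPM in CD offspring and 80.6 and 86.4 CPM in F0. Dio2 (1.67, adjusted p = 0.0587), Ppargc1a (-0.32, adjusted p = 0.334) and Prdm16 (-0.01, adjusted p = 0.954) did not pass. Without F0 CD replicate 2, Elovl3 lost its call (2.93, adjusted p = 0.0996), and Dio2 was called without F0 CD replicate 1 (3.22, adjusted p = 0.0177), without CD offspring 2 (1.94, adjusted p = 0.0436) and without pLPD replicate 1 (1.67, adjusted p = 0.0374). In the wider thermogenic programme, 19 of 27 were higher and 1 lower, with a median of 1.35. Among the muscle markers, 23 of 25 were lower in the offspring, and Cox6a2 was lower by 4.53 on the log2 scale (-4.53, adjusted p = 2.51e-05, edgeR), while Cox7a1 and Cox8b, which muscle also expresses, were higher. White adipocyte markers were lower as well, with 5 of 10 called lower, 0 higher and a median of -0.41, and sums of 22059 to 24905 CPM in CD offspring against 28133 and 30347 CPM in F0 CD mice. Of 5 epithelial markers tested, 3 were higher in CD offspring, with sums of 15.7 to 21.4 CPM against 4.92 and 6.19 CPM. The part of these markers in the member values was not tested.

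The genes whose values followed Ucp1 most closely were found by Pearson's r of log2(CPM + 0.5), each value taken relative to the mean of its generation, over 10 libraries and 14568 genes. They were Otop1 (0.98), Cpt1b (0.98), Slc25a20 (0.98), the acyl-CoA dehydrogenase Acadl (0.97) and Susd1 (0.97). Otop1 was 21.3 and 7.69 CPM in F0 CD mice, 59.5 and 52.5 CPM in F0 LPD mice, 78.5, 61.8 and 74.5 CPM in CD offspring and 86.2, 47.3 and 54.1 CPM in pLPD offspring. Like Ucp1, it was highest in pLPD replicate 1 and lowest in F0 CD replicate 2. Among the members, Cox8b (0.94), Elovl3 (0.94), Cidea (0.93) and Cox7a1 (0.92) ranked 11, 15, 20 and 33, with Prdm16 (0.81) and Dio2 (0.79) at 185 and 237. Ppargc1a (-0.22) and Ebf2 (-0.87) ran otherwise. These are descriptions over libraries that share the diets and the same few mice.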

How the data were processed

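RNA was prepared from the iWAT of 10 mice, and 36-base paired-end reads of strand-specific, rRNA-depleted libraries were mapped by the authors to mm10 in CLC Genomics Workbench, whose strand settings are not given in the sources used here. The deposited counts are the authors' numbers of reads on the exons and introns of each gene, not normalized. The deposited RPKM values are exon reads that the authors scaled to exon length and to a single library total, and they were used to compare levels between genes. The members, the gene lists and the tests were chosen with earlier results of these data known.

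Total exon reads were fitted in R 4.3.3 with edgeR 4.0.16 (filterByExpr, TMM, quasi-likelihood F test, two-sided, Benjamini-Hochberg over all genes tested, threshold 0.05 on the adjusted p). F1 and F0 were fitted apart, and the interaction and the generation on CD were fitted over all 4 groups. The standard error is the size of the log2 fold change over √F. All CPM are relative to TMM-normalized exon totals. Replicate numbers come from the labels. The labels do not say whether F0 mice of a group came from separate litters or fathers, and p-values measure the spread between these mice only. For the F1 mice sequenced, the paper gives different mothers, but neither it nor the labels match sons to fathers. The diet was given to the fathers, so sons that share a father would not be independent units. Between 2 mice of a group, counts differed by more than sampling noise, so each was kept as 1 replicate. The biological coefficient of variation was 11.8% in F1 and 8.73% in F0. Exact permutation tests of single values were two-sided, and those of CPM used log2(CPM + 0.5).

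Named were the members, the isoforms of Cox7a1, Cox8b and other complex IV subunits, up to 12 genes of the wider lists past the threshold in either diet comparison in order of adjusted p, and the 5 genes most like Ucp1. Alternatives were DESeq2 1.42.0, its size factors in edgeR, no filter, unique reads, all reads on the gene, limma 3.58.1 (limma-trend on log2 RPKM with 0.1 or 1 added), 1 fit of all groups, a replicate block, the exon share as a covariate, each mouse left out, and, chosen after seeing the data, intron reads alone. The fits were also run on simulated counts with a single dispersion for all genes. Such counts do not represent the wide spread between mice of a group seen for Ucp1, Dio2 and Elovl3. TPM and the authors' expression value column were not used.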

Additional observations from a re-analysis of the deposited data

Results flagged for a closer look

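For the 3 members Cox7a1, Cox8b and Ppargc1a, the 2 diet effects differed by the test of the difference itself (interaction of generation and diet, edgeR). With 1 mouse left out, the call held in 6 of 10 fits for Cox7a1 and in 3 each for Cox8b and Ppargc1a. The effect in F1 minus the effect in F0 was -1.94 for Cox7a1 and -1.51 for Cox8b, both higher with LPD in F0 and with log2 fold changes below 0 that did not pass the threshold in F1. For Ppargc1a it was 1.44, with exon reads higher in pLPD offspring and a log2 fold change of -0.40 that did not pass in F0. On intron reads alone it was -0.62. Generation, age, the set of libraries, and whether the mouse or its father ate the diet cannot be told apart in these differences.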

How the results depend on the processing

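The number of members called was 1 in F1, 5 in F0, 3 for the interaction and 6 between generations. In F1 the 1 call was higher (Ppargc1a). There it was 3 without a filter on low counts (Ppargc1a higher, Elovl3 and Cox7a1 lower), 2 with the exon share as a covariate (Ucp1 and Elovl3, both lower, with Ppargc1a lost) and 0 with limma (with 0.1 or 1 added) and with intron reads alone. In F0 it was 1 with DESeq2, 3 with all reads on the gene, 2 with all 4 groups in 1 fit, 8 without a filter, 0 with limma (both pseudocounts) and 2 with intron reads alone. For the interaction it was 8 without a filter, 5 with unique reads, 1 with limma (0.1 added) and 0 with intron reads alone. Without a filter, calls over all genes rose as well, to 798 of 22256 in F1, against 164 of 14049. In F0 they rose to 1343 of 22064, against 364 of 14581, and for the interaction to 890 of 23517, against 189 of 15111. Over all genes in F0, DESeq2 called 374 and limma 82 (0.1 added) or 47 (1 added). Leaving out 1 mouse at a time gave 0 to 2 members in F1, 3 to 6 in F0, 0 to 6 for the interaction and 5 to 7 between generations.

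The labels do not say whether equal replicate numbers mark related mice. Same-numbered mice of the 2 diets correlated in their deviations by 0.0389, -0.000158 and 0.00721 in F1, and differently numbered mice by -0.0624 to 0.0562. In F0 the value was 0.0487, but with 2 mice per group the deviations mirror each other. These values cannot decide whether the mice were paired. With the replicate number as a block, 2 members were called in F1, 8 in F0 and 6 for the interaction, and 260 genes in all in F1 against 164 without it and 1391 in F0 against 364. With the block, 1 residual degree of freedom remains in F0. Not every sample correlated best with its own number in F1.

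The signs of some values turned, and the cause was not tested. In F1, Prdm16 was 0.05 with all reads on the gene and 0.03 with introns alone, Ebf2 was -0.01 with all reads on the gene and with limma (both pseudocounts) and -0.09 with introns alone, Cidea was 0.05 with introns alone, and Dio2 was -0.37 with the exon share as a covariate. Leaving out 1 mouse, Ucp1 in F1 ranged from -1.14 to 0.17, Dio2 in the interaction from -1.97 to 0.35 and Prdm16 between generations from -0.10 to 0.06. Prdm16 between generations was 0.09 with unique reads. Ppargc1a was 0.42 in F0 and 0.46 between generations with all reads on the gene, and 1.09 in F0, 1.15 between generations and -0.62 in the interaction with introns alone. Ebf2 in the interaction was -0.05 with introns alone.

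Over all genes, calls ranged from 13 to 798 in F1, 47 to 1391 in F0, 19 to 890 for the interaction and 793 to 3415 between generations. The share of higher among called genes was 12.2% in F1, 47.3% in F0, 28.6% for the interaction and 53.6% between generations, and 1.71%, 36.6%, 12.2% and 32.9% with limma (0.1 added), which shifted the median of all genes by -0.159 in F1 and -0.129 between generations. With 2 or 3 mice a group, a member with a wide spread such as Dio2 or Elovl3 can differ several-fold without passing the threshold.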

Other observations

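Mice on the same diet differed from each other in several members. Between the 2 F0 CD mice, Ucp1 differed 4.34-fold, Dio2 5.12-fold and Elovl3 3.59-fold, while Prdm16 differed 1.12-fold and Ppargc1a was 0.854 of the other mouse. In F1, pLPD replicate 1 exceeded replicate 2 in Elovl3 5.71-fold, in Cidea 2.09-fold, in Ppargc1a 1.73-fold, in Cox7a1 1.68-fold and in Cox8b 1.47-fold, with Prdm16 at 0.991 of it. The same replicate had 152 CPM of Fabp3 and 121 CPM of Gk, against at most 35.9 CPM and 38.9 CPM in the other pLPD offspring.

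Cox7a1 had between 6 and 20 intron reads per mouse, and intron reads alone gave a log2 fold change of 0.17 in F0 (adjusted p = 0.914, edgeR), against 1.48 on exons.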
